A study of Mus musculus with 146 samples.

Results

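The Polycomb genes described here are Ezh1, Ezh2, Eed, Suz12, Rnf2, Ring1, Cbx2, Bmi1, Pcgf6 and Scml2, 10 of the 52605 gene symbols quantified in each cell. They were chosen by symbol. The data are 146 files of single germ cells from newborn C57/BL6J mouse ovaries (P0.5, the day of birth), prepared from 5 pooled ovaries of untreated female littermates and sequenced by Smart-seq2, which copies whole polyadenylated transcripts. The study asked how germ cells change while nests of joined cells (cysts) break up into primordial follicles. Cells were picked by mouth pipette, and those whose cDNA was positive for Foxl2, a pregranulosa cell gene, had been removed before sequencing. Of these files, 7 appear to repeat a cell that another file holds. Over all genes the 7 pairs correlated at 0.986 to 0.994 on the log2(TPM + 1) scale, against at most 0.876 for any other pair, and the spike-in RNA of a pair correlated at 0.994 or more. Their reads differed by a chi-square per gene of 1.91 to 5.18, more than the 1 that sampling alone gives, against at least 181 in the 10 next most alike pairs. Each pair was averaged and counted as 1 cell, all 7 of them in cluster 2 below. A further cell without Ddx4, a germ cell gene, was set aside. No cell is tied to an animal in the labels, so the cells make up 1 sample. Values are therefore given as ranges and shares over cells, without a test, and a share carries an exact (Clopper-Pearson) 95% confidence interval that covers counting error only.

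Polycomb proteins keep genes silent by marking chromatin. PRC2, built from EED, SUZ12 and either EZH1 or EZH2, methylates histone H3 at K27, and PRC1, built around RNF2 or RING1 with 1 of several PCGF proteins, attaches ubiquitin to histone H2A. Canonical PRC1 carries a CBX protein that binds the methyl mark, whereas variant PRC1 does not need that mark. In female germ cells PRC1 is known to restrain the timing of meiotic entry, and PRC2 in the growing oocyte sets marks that pass to the embryo.

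The germ cell identity of these cells was plain from genes other than Ddx4. Levels are in TPM, which is scaled for transcript length and sequencing depth, and a gene was called detected in a cell at 0.1 TPM or more. Dazl, Sycp3 and Figla were detected in every cell and Mael in all but 1. Of 8 pregranulosa markers, Foxl2, by which libraries had been discarded, was detected in 4 cells, and the other 7 in 4 to 65 (Wnt4), with means of at most 1.28 TPM. The 7 stroma markers were detected in 5 to 69 cells (Nr2f2, with a mean of 8.68 TPM). Genes received between 4103144 and 17440741 reads in a cell (median 9509197). Cells were grouped into 3 clusters rebuilt from 20 oocyte genes, of which none is a Polycomb gene. Cluster 1 held 19 cells, with high Sycp2 and other meiotic genes, cluster 2 held 87, and cluster 3 held 32, with high maternal oocyte genes. Cells were also laid out along the first principal component of the same 20 genes, from the cluster 1 end to the cluster 3 end, and divided into 5 bins of 27 or 28 cells. Cells of cluster 3 had more detected genes (median 14584, against 12424 and 12077 in clusters 1 and 2) and a lower share of spike-in reads (median 0.265%, against 0.345% and 0.443%). Transcripts of red blood cells were present at 324973 TPM in 1 cell of cluster 1 and at no more than 48602 TPM in the others. Summed over the 7 stroma markers, the median was 4.35, 1.05 and 0.521 TPM in clusters 1, 2 and 3. The highest cell of each had 293.5, 879 and 38.3 TPM of them.

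The promoters of 3 members are shown first, because their genes behaved differently in these cells. Scml2 differed most between clusters 1 and 3, Pcgf6 was the most abundant member and was found in every cell, and Suz12 had similar mean TPM in the 3 clusters. The stretches are the 250 bases before the RefSeq start of each gene (GRCm38.p6), read 5′ to 3′ on the strand of the gene, with each CpG dinucleotide in capitals. The Scml2 stretch lies at chrX:161162500-161162749 on the plus strand, inside the longer gene that GENCODE annotates and outside its exons. That of Pcgf6 lies at chr19:47050907-47051156 on the minus strand, and that of Suz12 at chr11:79992856-79993105 on the plus strand.

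Scml2: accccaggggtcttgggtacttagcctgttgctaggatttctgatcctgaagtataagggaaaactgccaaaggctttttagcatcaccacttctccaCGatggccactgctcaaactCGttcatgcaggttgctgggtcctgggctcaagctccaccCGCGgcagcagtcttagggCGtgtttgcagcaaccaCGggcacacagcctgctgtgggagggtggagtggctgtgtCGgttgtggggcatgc

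Pcgf6: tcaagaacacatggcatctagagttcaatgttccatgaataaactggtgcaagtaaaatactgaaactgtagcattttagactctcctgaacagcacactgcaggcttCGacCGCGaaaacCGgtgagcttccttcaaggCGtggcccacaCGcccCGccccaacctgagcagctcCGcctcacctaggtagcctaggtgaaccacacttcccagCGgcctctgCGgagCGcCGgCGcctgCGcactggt

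Suz12: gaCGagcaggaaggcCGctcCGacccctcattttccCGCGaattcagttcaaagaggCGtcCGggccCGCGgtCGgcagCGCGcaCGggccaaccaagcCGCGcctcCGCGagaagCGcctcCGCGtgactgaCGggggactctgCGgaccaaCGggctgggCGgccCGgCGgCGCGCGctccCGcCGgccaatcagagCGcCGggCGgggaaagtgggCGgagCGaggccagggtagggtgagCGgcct

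The Suz12 stretch held 37 CpG dinucleotides, more than or as many as in 97.8% of 32851 promoters, while that of Scml2 held 7, at percentile 53.7, and that of Pcgf6 held 14, at percentile 70.6. Among the 9 members with a promoter in the table (all but Cbx2), Ring1 came second with 30. The letters TTTCCCGC, a site known for E2F factors, were searched on both strands and found in Suz12 alone, against 0.895% of all promoters. Their shorter core TCCCGC, which the longer site contains, was found in Suz12 and Rnf2 (16.9% of promoters), and the E-box CACGTG in Bmi1 (6.02%). The homeodomain letters TAATTG, bound by Nobox, were in none of the 9 stretches, against 7.17% of promoters. These matches describe letters in a window and were not tied to any level measured here.

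Seen over all cells, 9 of the 10 genes were detected in at least 50% of them, and the median cell had 9 of the 10. The lowest number in a cell was 3, and 31 cells had all 10. TPM is per transcript length, so the genes can be set in order by their level. From high to low by median TPM that order was Pcgf6, Eed, Rnf2, Bmi1, Scml2, Ezh1, Ezh2, Suz12, Ring1 and Cbx2. The order depends on that division, since by median reads in CPM, without it, Rnf2 (185) and Scml2 (120.998) stood above Eed (117.6), whose reads and TPM implied a length of 1117 bases against 2067 for its longest annotated coding transcript.

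Of the PRC2 genes among the members, Eed, whose product binds the methyl mark and activates the enzyme, was the most abundant. Its level ran from 0 to 403 TPM with a median of 123.02, and it was detected in 94.9% of cells (95% confidence interval 89.8 to 97.9%). Suz12, the scaffold of the complex, ran from 0 to 208 TPM with a median of 19.3, in 87.7% of cells. Eed was above Suz12 in 84.1% of cells (76.9 to 89.7%). The share was 78.9%, 81.6% and 93.8% of the cells of clusters 1, 2 and 3. By median reads in CPM, without division by length, the gap was narrower, at 117.6 for Eed and 42.1 for Suz12.

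The enzymes of PRC2 were nearly level with each other. Ezh1 ran from 0 to 326 TPM with a median of 24.1, in 81.9% of cells, and Ezh2 from 0 to 217 TPM with a median of 19.4, in 84.1%. Ezh2 was the higher in 63 cells (45.7%), Ezh1 in 70, and both were at 0 in 5. Of the cells in which they differed, Ezh2 was above Ezh1 in 47.4% (38.7 to 56.2%), so neither enzyme gene was above the other beyond counting error. The same share was 52.6%, 42.7% (31.8 to 54.1%) and 56.3% (37.7 to 73.6%) for clusters 1, 2 and 3. Both were detected in 70.3% of cells, Ezh2 alone in 19, Ezh1 alone in 16 and neither in 6, and all 6 of the last were in cluster 2. Counted as reads, without division by length, Ezh2 exceeded Ezh1 in only 30.4% of cells. The reads and TPM of Ezh2 implied a median effective transcript length of 1108 bases, against 2787 for its longest annotated coding transcript, and those of Ezh1 implied 3167 bases against 4207. The comparison between these genes thus rests on how the quantification divided reads among their transcripts.

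Of the 2 ubiquitin ligase genes of PRC1, Rnf2 was much the higher. Rnf2 ran from 0 to 340.4 TPM with a median of 71.5, in 96.4% of cells (91.7 to 98.8%), and Ring1 from 0 to 126.8 TPM with a median of 5.52, in 95 cells (68.8%, 60.4 to 76.4%). Rnf2 was above Ring1 in 92% of cells (86.2 to 96%). Ring1 was detected without Rnf2 in 1 cell, while Rnf2 was detected without Ring1 in 39. Neither was detected in 4 cells, all of cluster 2.

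Bmi1 and Pcgf6, the PCGF genes among the members, were ordered as clearly. Another PCGF gene, Pcgf5, is not a member and had a higher median than either (188.5 TPM). Pcgf6, the PCGF subunit of a variant PRC1 that holds germline genes silent in other cells, was detected in every cell, at 7.78 to 429 TPM with a median of 141.3. Its level also varied least, with a coefficient of variation over cells of 52.4%, against 72.9% to 184% for the other 9. Bmi1, a PCGF subunit of canonical PRC1, ran from 0 to 368 TPM with a median of 38.1, in 79.7% of cells (72 to 86.1%). Bmi1 exceeded Pcgf6 in 14 cells (10.1%, 5.66 to 16.4%), of which 5 were among the 19 cells of cluster 1, 5 among the 87 of cluster 2 and 4 among the 32 of cluster 3. Counted as reads, without division by length, the share was 16.7%.

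Scml2 and Cbx2 stood at the 2 ends of the range over cells. Scml2, on the X chromosome, encodes a germline partner of PRC1 best known from the male germline. It ran from 0 to 1055 TPM with a median of 34.5, in 92.8% of cells, and its mean (65.5 TPM) was well above its median. Cbx2, a CBX subunit of canonical PRC1 known for its part in sex determination, was listed at 0 in 70 cells and reached 63.8 TPM. It was detected in 55 cells (39.9%, 31.6 to 48.5%), where its median was 11.8 TPM.

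**Figure D1:**
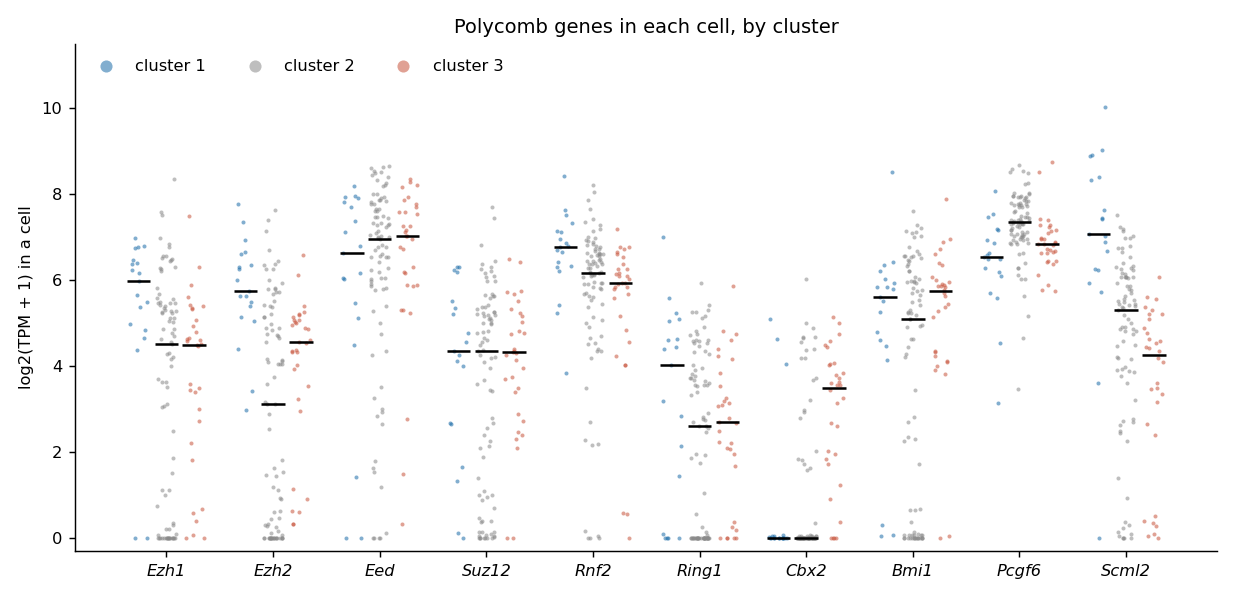
Level of each gene in each cell as log2(TPM + 1) on the vertical axis, with cells of cluster 1 (19), cluster 2 (87) and cluster 3 (32) side by side and a black bar at the median of each. Pcgf6 is present in every cell, Scml2 steps down from cluster 1 to cluster 3, and the Cbx2 median leaves 0 only in cluster 3.

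Neighbours in the order were compared within cells, over the cells in which the 2 levels differed. Pcgf6 was above Eed in 59.4% of them (50.7 to 67.7%), Eed above Rnf2 in 66.4%, Rnf2 above Bmi1 in 68.4%, Scml2 above Ezh1 in 60.6% (51.9 to 68.8%), Suz12 above Ring1 in 73.1% and Ring1 above Cbx2 in 66.1% (56.4 to 74.9%), each with a lower confidence limit over 50%. Ring1 and Cbx2 were both at 0 in a further 29 cells. Bmi1 over Scml2 (45.3%, 36.7 to 54%), Ezh1 over Ezh2 (52.6%, 43.8 to 61.3%) and Ezh2 over Suz12 (50%, 41.2 to 58.8%) could not be ordered beyond counting error. The pairs were set by medians in these same cells of 1 sample. Shares above 50% were therefore likely beforehand and add no separate support for the order. They also hold for TPM only, since by median reads in CPM Rnf2 (185) stood above Eed (117.6).

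A cell can only build a complex whose subunits it makes, so co-detection was counted. Eed, Suz12 and at least 1 of Ezh1 and Ezh2 were detected together in 80.4% of cells (72.8 to 86.7%). Pcgf6 was found with Rnf2 or Ring1 in 97.1% (92.7 to 99.2%), and Bmi1 with either ligase in 78.3% (70.4 to 84.8%). For Bmi1, Cbx2 and a ligase together the share was 33.3% (25.5 to 41.9%). That set was found in 3 of 19 cells of cluster 1, 16 of 87 of cluster 2 and 27 of 32 of cluster 3. These shares were not set against what the share of each gene alone would give, so they do not show that subunits occur together. Other CBX and PCGF genes were not counted, such as Cbx7 (detected in 62.3% of cells) and Pcgf2 (50.7%). A gene not detected in a cell may have been missed in the library, and proteins were not measured.

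Between clusters, a log2 ratio of mean TPM, with 1 TPM added to each mean, was called a difference when it was at least 1.5-fold (a log2 ratio of 0.58). In cluster 3 compared with cluster 1, 5 of the 10 genes were lower and 1 was higher. Of the 11756 coding genes with a mean of at least 1 TPM, 36.5% were lower and 27% higher by the same rule, 63.5% in either direction, so the 6 of 10 that differed were about as many as for genes at large, with more of them lower. The median log2 ratio of the 10 genes was -0.60, against -0.18 over all genes. For cluster 2 over cluster 1, 5 were lower and 1 higher (background 21.7% and 25.4%, 47.1% in either direction). For cluster 3 over cluster 2, 1 was lower and 1 higher (30.9% and 16%, 46.9% in either direction). With both files of each repeated cell kept, each of the 30 ratios stayed on the same side of 1.5-fold.

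Scml2 was the gene that differed most between clusters 1 and 3. Its 19 cells of cluster 1 ran from 0 to 1055 TPM (median 133.8), those of cluster 2 from 0 to 183 (38.7) and those of cluster 3 from 0 to 67 (18.2). Its mean was 236 TPM, then 45.1, then 19.5. The log2 ratio was -2.36 at the first step, -1.17 at the second and -3.53 over both. With clusters from variable genes it was smaller, at -1.21 for the first step and -2.22 over both. The ranges between the lower and upper quartiles of clusters 1 and 3 (74.9 to 328 and 5.02 to 29.8 TPM) did not overlap, which was so for 4 of the 10 members and 14.4% of all genes tested, and those of clusters 1 and 2 did not overlap either (2 members, 1.8% of genes). Without the cell at 1055 TPM the ratio over both steps was -3.23.

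The share of cells with Scml2 detected hardly moved, at 94.7%, 93.1% and 90.6% of clusters 1, 2 and 3. The gene differed in amount per cell rather than in the number of cells that had it. Along the order of cells its mean went from 183 TPM in the first bin to 53.5, 41.2, 29.2 and 17.5, with a Spearman rho of -0.55 over all cells and of -0.40 within the 87 cells of cluster 2. In an order made from other variable genes, without the 20 oocyte genes and the members, rho was -0.51. Per spike-in TPM, rho with the first order was weaker, at -0.37 over all cells.

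The enzyme gene Ezh2 was also lower in clusters 2 and 3 than in cluster 1. It ran from 6.83 to 217 TPM among cells of cluster 1 (median 52.5), from 0 to 199 in cluster 2 (7.71) and from 0.248 to 94.9 in cluster 3 (22.5). Its log2 ratio was -1.47 for cluster 2 over cluster 1, -0.04 for cluster 3 over cluster 2 and -1.51 for cluster 3 over cluster 1. With clusters from variable genes the first of these was -0.84 and the last -0.67. The quartile range of cluster 1 (37.8 to 88.4 TPM) lay above those of clusters 2 and 3 (0.0993 to 35.3 and 10.002 to 32.6). By the mean of log2(TPM + 1), Ezh2 was lower in cluster 2 than in cluster 1 by more (-2.83) and higher in cluster 3 than in cluster 2 (1.04). Ezh2 was detected in all 19 cells of cluster 1 and all 32 of cluster 3, but in 65 of 87 cells of cluster 2 (74.7%, 64.3 to 83.4%). By bin it was found in 26, 23, 16, 24 and 27 cells, so the middle of the order held the fewest.

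Ezh1 had a median of 62.7 TPM among cells of cluster 1 (0 to 125.8), 22.1 in cluster 2 (0 to 326) and 21.7 for those of cluster 3 (0 to 178). Its mean was 60.5, 35.5 and 26.04 TPM, with log2 ratios of -0.75, -0.43 and -1.19 for the first step, the second and both. The quartile ranges overlapped in every comparison. The second step passed 1.5-fold without the cell at 178 TPM in cluster 3 (-0.72) and with Ward clusters (-0.62). By the mean of log2(TPM + 1) the first step was -1.72.

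Eed and Suz12, the other PRC2 genes among the members, had similar mean TPM in the 3 clusters. Eed had means of 119.6, 137.8 and 137.4 TPM and Suz12 of 29.3, 28.2 and 24.9 in clusters 1, 2 and 3. Their log2 ratios lay between -0.23 and 0.20. By the mean of log2(TPM + 1), Eed was higher in cluster 3 than in cluster 1 (0.67). Eed was detected in 17 of 19, 82 of 87 and 32 of 32 cells, and Suz12 in 17, 74 and 30. By mean TPM, the level of EZH transcripts relative to those of Eed and Suz12 was accordingly highest in cluster 1. This does not extend to every PRC2 partner, since the mean of Rbbp7 was also highest in cluster 1 (688, 430 and 237 TPM).

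The 2 ligase genes both had a lower mean TPM in cluster 3 than in cluster 1. Rnf2 ran from 13.3 to 340.4 TPM in cluster 1 (median 107.9), from 0 to 296 in cluster 2 (71.5) and from 0 to 144.3 for cluster 3 (60.5), with log2 ratios of -0.61, -0.35 and -0.96. The quartile ranges of clusters 1 and 3 did not overlap. The first step, barely past 1.5-fold, fell short of it without the cell at 340.4 TPM in cluster 1 (-0.45), with reads in place of TPM (-0.52), with Ward clusters (-0.55), with the cell without Ddx4 added (-0.54) and with clusters from variable genes (-0.18). The ratio over both steps passed in each of these, but not per spike-in TPM (-0.07). The level of Rnf2 went with a low share of mitochondrial reads (rho -0.33), as did those of Eed (-0.32) and Scml2 (-0.25). Of these, Eed did not differ past 1.5-fold between clusters 3 and 1 (log2 ratio 0.20). The median share of mitochondrial reads was 5.20%, 6.19% and 7.46% in clusters 1, 2 and 3. Its part in these differences was not tested.

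Ring1 had means of 21.01, 9.88 and 9.17 TPM, with log2 ratios of -1.02, -0.10 and -1.11. Without the highest cell of cluster 1, at 126.8 TPM, the first ratio was -0.57, short of 1.5-fold, and the ratio over both steps was -0.67. Per spike-in TPM the ratio over both steps was -0.30, short of 1.5-fold. By bin Ring1 was detected in 22, 22, 8, 19 and 24 cells. As with Ezh2, the middle bin held the fewest cells (29.6%, 13.8 to 50.2%). The level of Ring1 went with the number of genes detected (rho 0.31) and with a low share of spike-in reads (-0.37). It also went with blood or endothelial markers (0.27), as did that of Ezh2 (0.24). The median level of these markers was 110.6, 97.5, 33.1, 50.9 and 31.2 TPM in bins 1 to 5. The middle bin had a median of 12267 genes and 0.465% spike-in reads, against 12037 and 0.473% in the second bin. The part of these properties in the result was not tested.

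By mean TPM, Pcgf6 was highest in cluster 2, with a mean of 176 TPM (10.1 to 411) against 103.3 in cluster 1 (7.78 to 269) and 129.4 in cluster 3 (53.1 to 429). Its log2 ratio was 0.76 for cluster 2 over cluster 1 and -0.44 for cluster 3 over cluster 2. The first of these did not pass 1.5-fold per spike-in TPM (0.42) or with clusters from variable genes (0.25). The second turned to 0.46 per spike-in TPM, on which scale cluster 3 was the highest. Bmi1 had means of 58.8, 42.95 and 55.2 TPM, and its median was 47.7, 33.002 and 52.7 TPM. None of its ratios of mean TPM (-0.44, 0.35 and -0.09) reached 1.5-fold, and the first rested on the cell of cluster 1 at 368 TPM, without which it was 0.05. By reads in place of TPM, Bmi1 was past 1.5-fold higher in cluster 3 than in clusters 2 and 1 (0.64 for each), and by the mean of log2(TPM + 1) it was lower in cluster 2 than in clusters 1 and 3 (-1.04 for cluster 2 over cluster 1 and 1.42 for cluster 3 over cluster 2). Bmi1 was detected in 63 of 87 cells of cluster 2 (72.4%, 61.8 to 81.5%) and in 30 of 32 of cluster 3 (93.8%, 79.2 to 99.2%), and its mean in the middle bin (20.9 TPM) was below those of the others (48.6 to 62.2).

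Cbx2 was the only member with a mean TPM past 1.5-fold higher in cluster 3 than in clusters 1 and 2. Its highest level by cluster was 33.5, 63.8 and 34.7 TPM, and its median was 0, 0 and 10.3 TPM. It was detected in 3 of 19 cells (15.8%, 3.38 to 39.6%), 24 of 87 (27.6%, 18.5 to 38.2%) and 28 of 32 (87.5%, 71.01 to 96.5%). The mean was 3.83, 4.15 and 10.5 TPM, with log2 ratios of 0.09, 1.16 and 1.25. By the mean of log2(TPM + 1) the last 2 were 1.91 and 2.13. Without the cell of cluster 1 at 33.5 TPM the first ratio of means was 0.69, past 1.5-fold, and the last 1.86. The interval of cluster 3 lay above those of the others, and the quartile ranges of clusters 3 and 2 did not overlap, as was so for 1 of the 10 members and 3.05% of all genes.

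With every cell thinned to 500000 reads, Cbx2 was found in 21.1%, 27.6% and 84.4% of the cells of clusters 1, 2 and 3, counting a cell with at least 1 read. Its level also went with the number of genes detected in a cell (rho 0.49) and with a low share of spike-in reads (-0.37), both of which were properties of cluster 3, and their part in the difference was not tested. By bin it was detected in 6, 6, 7, 10 and 26 cells, so most of the change lay at the end of the order.

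**Figure D2:**
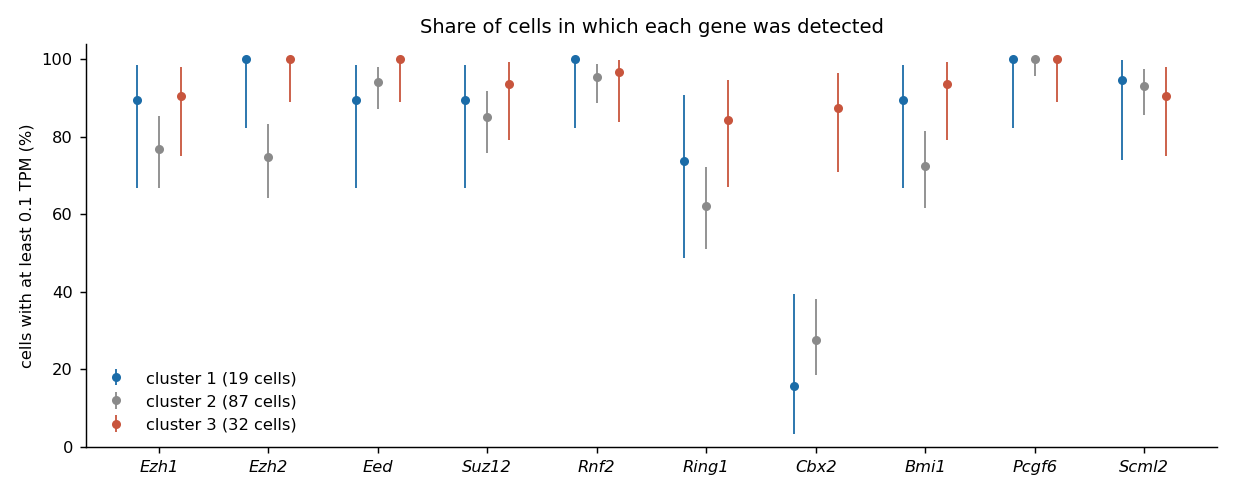
Percent of the cells of each cluster with at least 0.1 TPM of each gene, with exact 95% confidence intervals as vertical lines. Cbx2 goes from 15.8% in cluster 1 to 87.5% in cluster 3, while 6 of the 10 genes (Ezh1, Ezh2, Suz12, Rnf2, Ring1 and Bmi1) have their lowest share in cluster 2, which also had the fewest genes detected per cell.

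**Figure D3:**
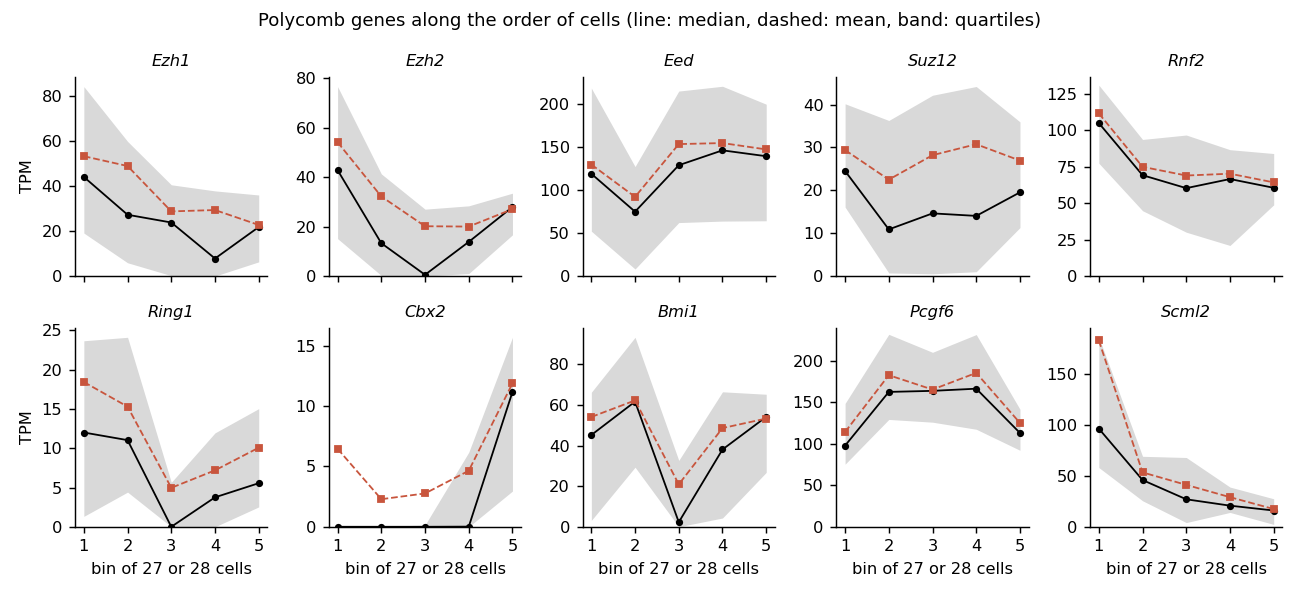
TPM of each gene in 5 bins of 27 or 28 cells along the first principal component of the 20 oocyte genes, with the median (black), the mean (red squares) and the quartiles (band). Scml2 declines from bin to bin, Cbx2 is highest in the last bin, and Ezh2, Ring1 and Bmi1 have their lowest median in the third bin.

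All of these levels are shares of a cell's transcripts. When TPM was divided by the TPM of the spike-in RNA of the same cell, the median log2 ratio of all genes moved from -0.23 to 0.63 for cluster 3 over cluster 2 and from -0.18 to 0.46 for cluster 3 over cluster 1, and from 0.00483 to -0.17 for cluster 2 over cluster 1. The counts of members moved with it. From cluster 1 to cluster 3, 5 members were then higher and 3 lower (background 45.8% and 18.7%), and from cluster 2 to cluster 3, 7 were higher and none lower (52.2% and 8.91%).

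Lower levels of Ezh1 (-0.69), Ezh2 (-0.62) and Scml2 (-3.05) in cluster 3 than in cluster 1 passed 1.5-fold on this scale too, as did the higher level of Cbx2 (2.11). Rnf2 (-0.07) and Ring1 (-0.30) did not pass, nor did Scml2 for cluster 3 over cluster 2 (-0.27), and Eed (1.21), Suz12 (0.70), Bmi1 (0.93) and Pcgf6 (0.88) were higher in cluster 3 than in cluster 1. Relative to the median gene, the ratios per spike-in were -3.51 for Scml2, -1.16 for Ezh1, -1.08 for Ezh2, -0.76 for Ring1 and -0.53 for Rnf2, and 0.75 for Eed and 1.65 for Cbx2. The genes furthest from the median gene in each direction, Scml2 and Cbx2, were the same on both scales.

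**Figure D4:**
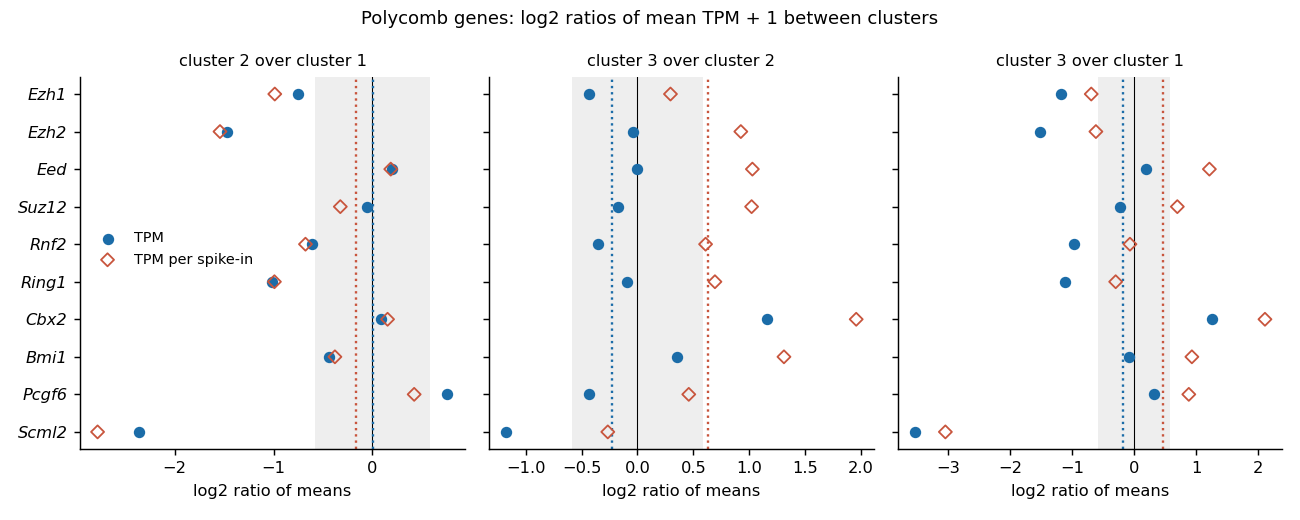
Log2 ratio of mean TPM + 1 between clusters for each gene (blue points) and the same from TPM per spike-in TPM (open red diamonds), with the median of all 11756 coding genes tested as a dotted line in the same colour and the range below 1.5-fold in grey. Scml2 lies furthest left for cluster 3 over cluster 1 (-3.53 and -3.05), and most diamonds lie right of their points in both comparisons with cluster 3.

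Levels of the 10 genes were also compared with each other across cells. Among the 45 pairs, Spearman rho ran from -0.21 (Pcgf6 and Cbx2) to 0.29 (Scml2 and Rnf2) over cells that share a litter and a preparation. For Scml2 and Rnf2 the highest 1% of other genes began at 0.41 and 0.38, above the rho of that pair, whereas Bmi1 and Ezh2 (0.25) were past the value for Bmi1 (0.22) and just short of that for Ezh2 (0.26). The genes most like each member were then sought among 8247 coding genes, as a description without a test. For Scml2 they were Hdac1 (rho 0.57), which encodes a histone deacetylase, Ccnb3 (0.56), a cyclin known from meiosis, and Iqcb1 (0.55). For Rnf2 they were Ythdf2 (0.49), a reader of methylated mRNA, Cul4b (0.48) and Cct5 (0.48).

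For Pcgf6 the closest was Lhx8 (0.45), an oocyte transcription factor that is among the 20 genes used for clustering, followed by Adad2 (0.43) and Akr1b3 (0.39). Eed was closest to Parl (0.47), Polr2d (0.46) and BC031181 (0.42), and Suz12 to Ago3 (0.44) and Psme4 (0.30). Ezh1 was closest to Tex10 (0.41), Rab18 (0.41) and Slc35c2 (0.39), and Ring1 to Mapkap1 (0.46), Prpf8 (0.44) and Ebag9 (0.44). Ezh2 was closest to Hltf (0.43), Arrdc3 (0.35) and Sugp1 (0.35), and Bmi1 to Abhd17c (0.35), Cab39 (0.30) and Fam175a (0.30). Members were left out of this search. Library-wide variation is shared by all of these pairs, and for the 9 members the highest 1% of genes began at rho 0.22 to 0.41.

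Other subunits and opponents of the complexes were taken from lists. Of 46 such genes with a mean of at least 1 TPM, 17 (37%) were at least 1.5-fold higher in cluster 3 than in cluster 1 and 13 (28.3%) lower, against 27% and 36.5% of all genes. Per spike-in TPM, 26 were higher and 2 lower, where 45.8% and 18.7% of all genes were. Of the 30 past 1.5-fold by their means, 28 had medians that differed in the same direction. The exceptions were Phf19, with medians of 0, and Max.

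Among 9 partners of PRC2, 3 were lower and 4 higher. Rbbp7, a histone-binding subunit, went from a mean of 688 TPM in cluster 1 to 430 and 237 (-1.53 over both steps), Mtf2, which recruits PRC2 to CpG islands, from 141.5 to 110.4 and 68.5 (-1.04), and Rbbp4 from 228 to 203 and 142.3 (-0.68). Lcor (1.69), Phf19 (1.66), Aebp2 (0.83) and Phf1 (0.83) were higher, with Phf19 detected in only 12 cells.

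Among 8 other genes of canonical PRC1, 3 were higher and 2 lower. The CBX genes Cbx8 (log2 ratio 0.95) and Cbx7 (0.91) were higher in cluster 3, as Cbx2 was, whereas Cbx6 was lower (8.73, 9.21 and 1.77 TPM; -1.81). Pcgf2, the close relative of Bmi1, was higher (1.52) from a mean of 1.27 TPM, and the polyhomeotic gene Phc3 was lower (-0.89).

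Among 19 genes of variant PRC1, 7 were higher and 6 lower. Of its PCGF genes, Pcgf1 (28.9, 48.04 and 79.9 TPM; log2 ratio 1.44) and Pcgf3 (21.9, 17.5 and 49.3; 1.14) were higher in cluster 3, and Pcgf5 (228, 253 and 105.1; -1.11) was lower. Rybp (1.79) was higher and its relative Yaf2 (-0.96) lower. Partners of PCGF1 differed in direction, with Bcor (1.24) and Usp7 (1.37) higher and Kdm2b (-1.41) and Bcorl1 (-1.33) lower. Of the PCGF6 partners, L3mbtl2 was lower (-0.86). Max had a lower mean (-0.66) but a higher median, at 0.0532, 18.7 and 15.4 TPM in clusters 1, 2 and 3. Mga (0.06), E2f6 (0.55) and Tfdp1 (-0.37) were within 1.5-fold, and Fbrsl1 (2.01) and Fbrs (0.78), linked to PCGF3 and PCGF5, were higher.

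Of 8 genes that remove ubiquitin from H2A or act with such an enzyme, the deubiquitinase gene Bap1 was lower (59.8, 48.8 and 27.9 TPM; -1.07) and its partners Foxk1 (1.52), Asxl3 (1.31) and Foxk2 (0.80) were higher, from means of at most 6.18 TPM. The other deubiquitinase genes, Usp16 (0.06) and Mysm1 (-0.37), were within 1.5-fold. The H3K27 demethylase Kdm6a had means of 28.97, 18.1 and 13.96 TPM, past 1.5-fold lower in cluster 3 than in cluster 1, but nearly equal medians in these clusters (14.9 and 14.8 TPM, and 11.3 in cluster 2). Kdm6b did not pass (0.0089). Of the 13 lower genes in all these lists, only Cbx6 (-1.05) and Bcorl1 (-0.75) remained past 1.5-fold lower per spike-in TPM. Both were low in most cells. Their medians in clusters 1, 2 and 3 were 0.907, 0.320 and 0.234 TPM for Cbx6 and 0.435, 0 and 0.0831 for Bcorl1. The ratios of Rbbp7 (-0.56), Mtf2 (-0.14), Pcgf5 (-0.25), Bap1 (-0.31) and Kdm6a (-0.44) did not remain past 1.5-fold per spike-in TPM. Nor did those of Rbbp4 (0.00058), Kdm2b (-0.44), Yaf2 (-0.20), L3mbtl2 (-0.19), Phc3 (-0.18) and Max (-0.36).

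**Figure D5:**
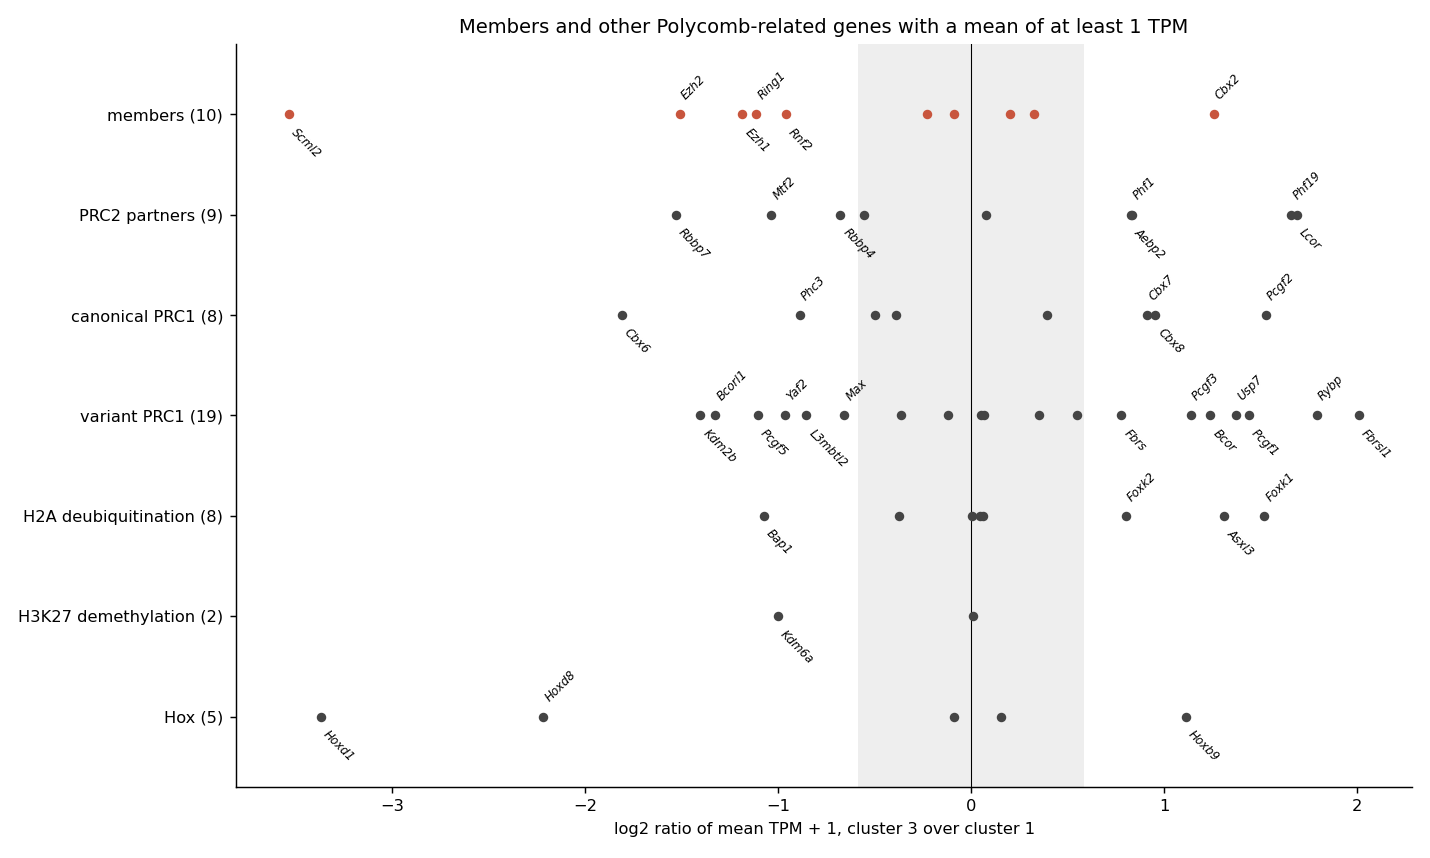
Log2 ratio of mean TPM + 1, cluster 3 over cluster 1, for the 10 genes described here (red) and for listed genes of each kind with a mean of at least 1 TPM (grey), with the number of genes in brackets and names given outside the grey range of 1.5-fold. Scml2 has the lowest ratio shown (-3.53) and Fbrsl1 the highest (2.01).

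The Hox genes, classic targets of Polycomb silencing, were close to absent. Of 39, 34 had a mean below 1 TPM, 6 reached 0.1 TPM in no cell and 2 did so in at least 50% of the cells. The 5 with a mean of at least 1 TPM were Hoxd8 (19.8, 12.1 and 3.48 TPM in clusters 1, 2 and 3; log2 ratio -2.22), Hoxd1 (9.55, 6.19 and 0.02; -3.37), Hoxa4 (1.67, 2.58 and 1.97; 0.15), Hoxb9 (0.10, 1.69 and 1.37; 1.11) and Hoxa7 (0.15, 1.88 and 0.08; -0.09). Hoxd8 was detected in 54 cells and Hoxd1 in 19. The part of stroma transcripts, whose median was also highest in cluster 1, was not tested.

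The cell set aside had no Ddx4 and 0.221 TPM of Dazl, with 222 TPM of the stromal collagen gene Col1a2 and 82.4 TPM of Kitl. Of the 7 stroma markers, Pdgfra (11.46 TPM), Dcn (0.553) and Nr2f2 (0.339) were also above 0.1 TPM and Col1a1, Col3a1 and Lum were at 0, and of the 8 pregranulosa markers, Lgr5 (2.63 TPM), Wnt4 (2.32), Gata4 (1.08) and Fst (0.272) were also above 0.1 TPM and Foxl2, Krt19 and Amhr2 were at 0. It had 64.3 TPM of Scml2, above the median germ cell, and 7.80 TPM of Ezh2, and the other 8 members were listed at 0. Its Scml2 level rested on 279 reads.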

How the data were processed

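Libraries of single germ cells were made by Smart-seq2, with ERCC RNA spiked into the lysate. The authors ran Salmon with its sequence bias correction against mm10 and the spike-in sequences. They deposited, for each cell and gene symbol, TPM and an estimated count, which need not be whole. The annotation release is not given in the sources used here. The deposited effective lengths did not reproduce TPM for genes with several transcripts and were not used for levels. Implied lengths are reads over TPM, scaled by the spike-ins, in cells with at least 10 reads.

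Files correlated at 0.95 or more over genes were taken as 1 cell, with the mean of their values. Members and gene lists were chosen with earlier results of these data known. Symbols were matched to GENCODE M21 (GRCm38). The 20 feature genes were clustered in R 4.3.3 with Seurat 5.3.0, using 10 components, 20 neighbours and resolution 0.2. Ratios, shares and Spearman correlations came from scripts (SciPy 1.17.1, NumPy 2.4.6 and pandas 2.3.3 under Python 3.11.15), which were tested on simulated data. Intervals cover counting error only, and reads without molecular identifiers are not independent molecules. Named genes are the members, the listed Polycomb genes past 1.5-fold between clusters 3 and 1 with a mean of at least 1 TPM, Hox genes with such a mean, and for each member found in at least 50% of the cells the 3 genes of highest rho. Mga, E2f6, Tfdp1, Usp16, Mysm1 and Kdm6b were named after their values were seen. Overlapping genes on the other strand (Gm26625 at Ezh2, Gm26563 at Suz12, Trmt1l at Rnf2) could share reads, since Smart-seq2 libraries do not mark strand. Ezhip was listed and not matched. Some genes that met these rules are not reported here. Alternatives were other scalings, averages, pseudocounts, clusters and cells, and each cell left out in turn. Omission of the cell richest in blood transcripts, and keeping both files of a repeated cell, were added after the data were seen.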

Additional observations from a re-analysis of the deposited data

How the results depend on the processing

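The number of Polycomb genes past 1.5-fold from cluster 2 to cluster 3 was 2, and became 7 per spike-in TPM and 4 from mean log2(TPM + 1). Of all genes tested, 16% were higher and 30.9% lower by mean TPM. Per spike-in TPM these shares were 52.2% and 8.91%, and from mean log2(TPM + 1) they were 27.4% and 12.6%. On these scales the median of all genes moved as well, from -0.23 to 0.63 and 0.14. With each cell left out in turn it ranged over 2 to 3, and the counts for clusters 2 and 3 over cluster 1 were 5 to 7 and 6 to 6. Without the cell richest in blood transcripts, and with both files of a repeated cell kept, the counts were 6 for cluster 2 over cluster 1, 6 for cluster 3 over cluster 1 and 2 for cluster 3 over cluster 2. By reads in place of TPM, the share of cells with more Ezh2 than Ezh1 was 30.4% in place of 45.7%, with at least 1 TPM of both it was 47.4% of 78 cells, and with both files of a repeated cell it was 44.8%. Of the 30 ratios of single members, 16 kept their side of 1.5-fold per spike-in TPM (4 lost a call and 10 gained one), 26 from mean log2(TPM + 1), 27 by reads, 28 with Ward clusters, 28 with clusters from variable genes, 29 with the cell without Ddx4 added, and 30 with a pseudocount of 0.1 and with both files of a repeated cell. No called ratio changed sign. No paired analysis was possible because all cells belong to 1 group without replicate animals. Ring1 had a median of 71 reads per cell and Cbx2 a median of 0. Thinned to 500000 reads, cells with at least 1 read went from 97 to 84 for Ring1 and from 67 to 55 for Cbx2.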
